A study of Homo sapiens with 6 samples.

Results

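Genes of the mitochondrial protein import translocases and of the inner membrane carriers were compared between cells given the compound coded AAPK and cells given DMSO. A gene was a member if a probe set of the array named its symbol alone and the symbol began with TOMM, TIMM or SLC25A followed by a digit. There were 69 members among 18132 measured genes: 23 translocase genes (TOMM and TIMM) and 46 carrier genes (SLC25A). Where a gene had several probe sets, its values come from the brightest by mean signal over all 6 arrays, and the others are given beside it. TOMM7, TIMM23B and SLC25A6 had no probe set that named them alone and are not analysed here.

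The arrays were Affymetrix PrimeView, 3 with RNA of DMSO cells and 3 with RNA of AAPK cells, all labelled as the colorectal carcinoma line HCT-116, grown in RPMI medium with serum and described as expressing much Aurora-A and PLK-1. The labels give 10 µM and 48 h for all 6 samples alike, and the dose is taken to be that of AAPK; by the series title the compound inhibits both Aurora A and PLK-1, kinases of mitosis. Signals are log2 values, and every change is AAPK minus DMSO on that scale. A gene is said to have risen or fallen, or to be called, only where limma's adjusted p, over all 18132 genes, was under 0.05. Separate cultures are not stated for the arrays of a group, so the p-values cover only the spread among these 6 samples, and that spread may be technical. Each array reads a whole culture, so fewer cells with a transcript and less transcript per cell cannot be told apart.

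Arrays of a group correlated at Pearson's r of 0.9976 to 0.9983 and arrays of different groups at 0.9942 to 0.9954, and array medians lay between 6.46 and 6.50. AURKA and PLK1, the genes of the named kinases, were 1.74-fold and 1.15-fold higher with AAPK (adjusted p = 1.79e-06 and 0.0118). Markers of the labelled cell type were uneven: KRT8 and KRT18, keratins of simple epithelia, had mean signals of 11.93 and 12.48, but 5 of 7 colorectal epithelial markers lay below the median gene signal of 7.10. EPCAM, the epithelial adhesion molecule, was at 3.42 on the brightest of its 3 probe sets, the 0.866th percentile of genes, VIL1 was at 4.09, KRT19 at 4.997, CDH1 (E-cadherin) at 5.11 and CDX2 at 5.84. The cells are therefore called by their label only. The summed level of the 7 markers, nearly all of it KRT18 and KRT8, ran from 13.17 to 13.22 with DMSO. With AAPK it ran from 13.26 to 13.36. EPCAM, VIL1, CDH1 and CDX2 had changes of -0.06, -0.14, -0.01 and -0.03, and KRT18 and KRT19 of 0.08 and 0.05. KRT8 was the epithelial marker called, at 0.17 (adjusted p = 0.0402). Of 15 measured fibroblast, endothelial and blood cell markers none was called by limma. Below the median gene signal lay 6 of 6 fibroblast, 1 of 4 endothelial and 3 of 5 blood cell markers. HBB, a blood cell marker, was at 8.47. The summed fibroblast level was 8.66 to 8.73 with DMSO and 8.61 to 8.73 with AAPK, the endothelial one 9.18 to 9.22 and 9.09 to 9.22, and the blood one 9.05 to 9.15 and 9.01 to 9.14.

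Nearly all mitochondrial proteins are made in the cytosol and pass the outer membrane through the TOM complex. From there the TIM23 complex takes proteins with a presequence into the matrix, while small TIM chaperones ferry multispanning proteins to the TIM22 complex, which inserts them into the inner membrane. Most SLC25 carriers exchange metabolites, nucleotides and ions across the inner membrane and are themselves clients of that second route. Carrier genes were listed here by symbol alone, whichever membrane the protein lies in.

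Among the translocases TOMM5 and TIMM17A rose most on the brightest probe sets, and among the carriers SLC25A32 and SLC25A4. Of 23 translocases 9 rose, 2 fell and 12 were not called, so that 47.8% were called against 15.4% of all genes. Of 46 carriers 3 rose, 1 fell and 42 were not called, or 8.70%. In each direction the share over all genes was 8.11% higher and 7.26% lower. The median log2 change was 0.11 for the translocases, 0.0043 for the carriers and -0.02 for all genes. These are descriptions of the lists, and no test of either list as a whole was made.

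The lists also differed in brightness. The median gene signal of 7.10 was reached by 21 of the 23 translocases and by 30 of the 46 carriers. Among all genes at or above it 24.8% were called, 14.5% upward and 10.3% downward. Of the 21 translocases at or above it 11 were called (52.4%), and of the 30 carriers 4 (13.3%). None of the 2 translocases and 16 carriers below it was called by limma, where 5.99% of all such genes were; the carriers SLC25A34 and SLC25A41 and no translocase had an unadjusted p under 0.05 there. What part brightness has in the counts was not tested further.

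The count for the translocases was 7, 5 higher and 2 lower, after quantile normalisation. It was also 7 without DMSO replicate 1, AAPK replicate 1 or AAPK replicate 2. Over all 18132 genes the count went from 2788 to 2683 after quantile normalisation, 1282 of them higher and 1401 lower. Without those arrays in turn the count over all genes was 1921, 1988 and 2013. TOMM5, TIMM17A, TIMM8B and TIMM9 were called under each of the 16 alternatives, as were the carriers SLC25A4 and SLC25A32.

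**Figure D1:**
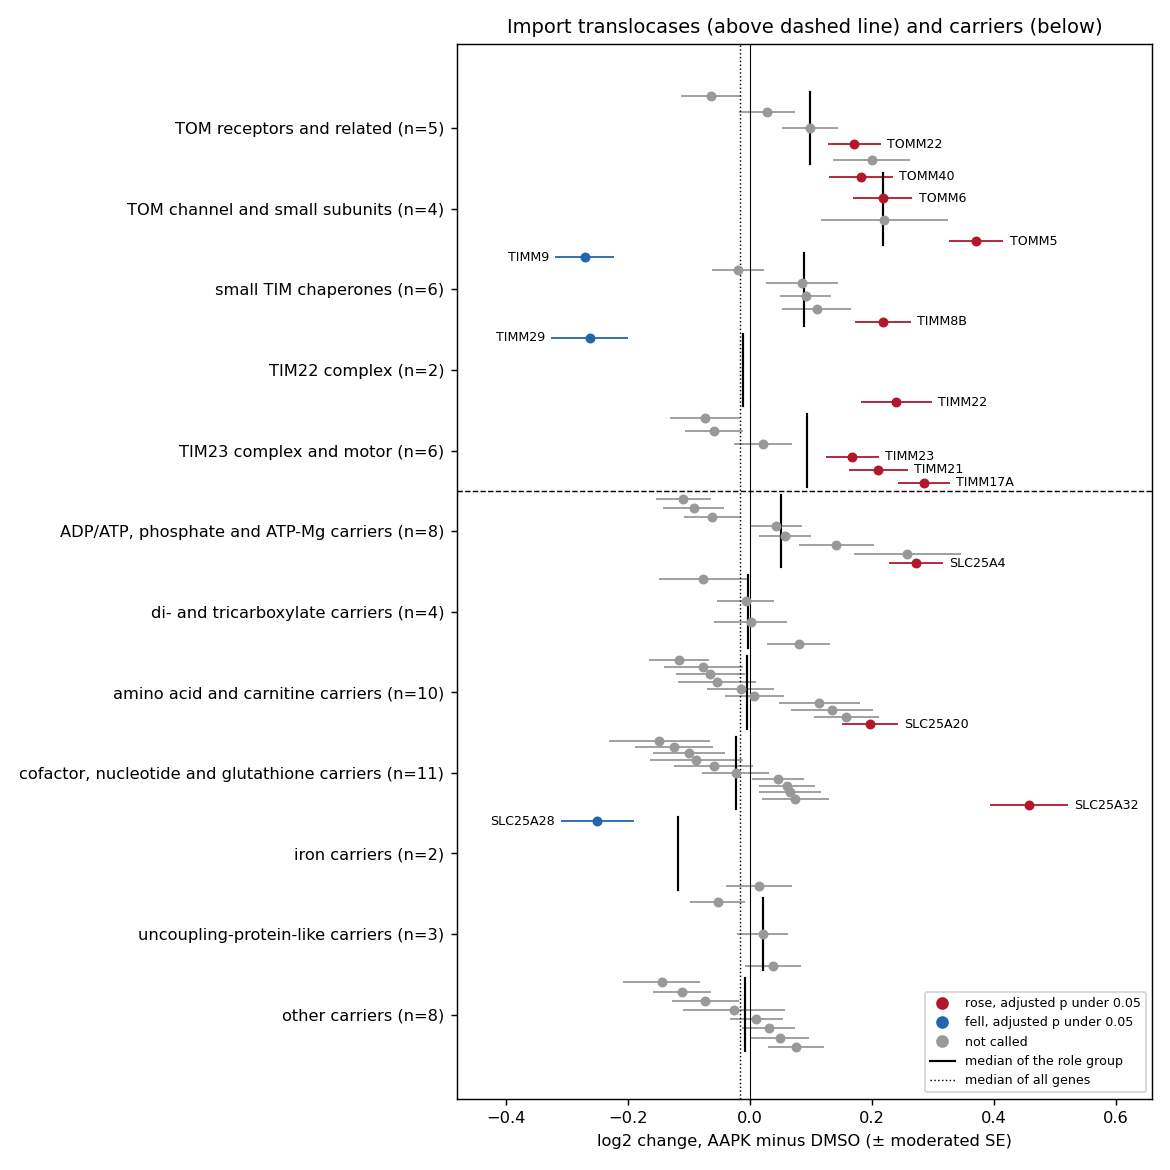
Log2 change (AAPK minus DMSO) on the x axis for each of the 69 members, grouped by role on the y axis, with moderated standard errors as bars; red and blue points rose or fell at adjusted p under 0.05, black ticks are group medians and the dotted line is the median of all genes at -0.02. Of the 23 translocases above the dashed line 11 are coloured, against 4 of the 46 carriers below it.

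In the TOM complex, the gene of a small channel subunit changed most. TOMM5 read 10.15, 10.10 and 10.07 in the DMSO samples and 10.49, 10.49 and 10.44 in the AAPK samples. All 3 AAPK arrays stood above all 3 DMSO arrays. The rise was 1.29-fold (0.37 ± 0.04 on the log2 scale, moderated SE, 3 arrays a group; limma's adjusted p = 3.81e-04), and both other TOMM5 probe sets rose too, by 0.50 and 0.47. TOMM6, another small subunit, went from 10.12, 10.04 and 10.18 to 10.32, 10.31 and 10.37, a rise of 0.22 (adjusted p = 0.0129) with no overlap. After quantile normalisation its call was lost, and other probe sets of the array name TOMM6 together with PRICKLE4. TOMM40, the channel itself, read 8.01, 7.99 and 7.87 with DMSO and 8.19, 8.15 and 8.09 with AAPK. Its rise of 0.18 (adjusted p = 0.0418) was, of the called members, nearest to the threshold. Leaving out any array but AAPK replicate 3 ended that call, as did quantile normalisation. TOMM40L, a paralog of the channel, had a change of 0.22 ± 0.10 with overlapping groups and was not called; without DMSO replicate 3 it was at 0.35 and called, and so was the mean of its probe sets, at 0.16. All 4 genes of the channel and its small subunits had a positive change.

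Of the 3 TOM receptor genes and 2 genes grouped with them 1 rose. TOMM22, the central receptor, read 9.88, 9.85 and 9.84 with DMSO and 10.00, 10.06 and 10.03 with AAPK, which put every AAPK array above every DMSO array. It rose by 0.17 ± 0.04 (adjusted p = 0.0231), while its other probe set was at 0.06 and did not pass; the change was 0.11 and not called both with the mean of its probe sets and after quantile normalisation. Leaving out any array but AAPK replicate 1 ended the call. TOMM20, the presequence receptor and the brightest translocase probe set at a mean of 11.08, read 11.06, 11.07 and 11.06 with DMSO and 11.10, 11.03 and 11.15 with AAPK. The groups overlapped, and the 95% interval of the difference was -0.07 to 0.13. TOMM70, which receives carrier precursors from cytosolic chaperones, had 8.58, 8.42 and 8.67 against 8.73, 8.73 and 8.81. Its AAPK arrays all lay above the DMSO arrays, but the change of 0.20 ± 0.06 was not called (adjusted p = 0.0600); it was called without DMSO replicate 3, at 0.26. It was also called with median centring, at 0.22, with dim genes left out, with an intensity trend and with array weights. Its other probe sets, both dim, were at 0.08 and -0.08. TOMM34, a cytosolic import co-chaperone, and TOMM20L, a paralog of the receptor, were at 0.10 and -0.06 and not called.

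Of the 6 genes of the TIM23 complex and its motor tether 3 rose and none fell. All 6 lay at or above the median gene signal, where 14.5% of all genes rose and 10.3% fell. TIMM17A, a core subunit, read 9.98, 9.95 and 10.01 with DMSO and 10.25, 10.29 and 10.26 with AAPK. This 1.22-fold rise (log2 change 0.29 ± 0.04, adjusted p = 0.00144) was shared by another bright probe set, at 0.26. The remaining set, dim at a mean signal of 4.21, was at -0.07, so that the mean over all 3 was 0.16. Its paralog TIMM17B did not pass, at -0.06 (adjusted p = 0.492). TIMM21, a subunit that couples the complex to the respiratory chain, went from 7.71, 7.70 and 7.65 to 7.86, 7.86 and 7.97. It rose by 0.21 ± 0.05 (adjusted p = 0.0145) and by 0.32 on its other probe set, and lost the call without DMSO replicate 3. TIMM23, the channel, read 10.02, 10.07 and 10.00 with DMSO and 10.20, 10.20 and 10.19 with AAPK. The groups did not overlap and the rise was 0.17 ± 0.04 (adjusted p = 0.0244), with 0.30 on the other probe set. Only without DMSO replicate 2 did the TIMM23 call outlast the loss of an array, and after quantile normalisation the change was 0.10 and not called. TIMM23 has the near-identical copy TIMM23B, and its probe sets may read both.

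Neither the presequence receptor of TIM23 nor the protein that tethers its motor was called. TIMM50, that receptor, read 8.12, 8.17 and 8.19 with DMSO and 8.18, 8.23 and 8.12 with AAPK, with an interval of -0.08 to 0.13 for the difference. TIMM44, the motor's tether, read 7.97 ± 0.06 with DMSO and 7.90 ± 0.09 with AAPK (SD, n = 3), with an interval of -0.20 to 0.05. Both pairs of groups overlapped.

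In the carrier insertion route, changes went both ways. TIMM22, the channel of that route, read 7.69, 7.48 and 7.61 with DMSO and 7.84, 7.87 and 7.79 with AAPK, a rise of 0.24 ± 0.06 (adjusted p = 0.0185). TIMM29, its partner subunit, read 8.17, 7.99 and 8.19 with DMSO and 7.85, 7.92 and 7.78 with AAPK, a fall of -0.26 ± 0.06 (adjusted p = 0.0177). For both genes the groups did not overlap. The level of TIMM22 minus that of TIMM29 on the same array was -0.48, -0.51 and -0.58 with DMSO and -0.01, -0.05 and 0.00477 with AAPK. The pair was chosen after its values were seen, so this difference of 0.50 is a description. The TIMM22 call was lost without DMSO replicate 2, AAPK replicate 1 or AAPK replicate 2, and the TIMM29 call without DMSO replicate 1, DMSO replicate 3, AAPK replicate 1 or AAPK replicate 3.

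Among the 6 small TIM chaperones of the intermembrane space 1 rose and 1 fell. TIMM9, which pairs with TIMM10 to carry carrier precursors, read 7.90, 7.89 and 7.98 with DMSO and 7.62, 7.71 and 7.64 with AAPK. It fell by 0.27 on the log2 scale, or 1.21-fold (SE 0.05, adjusted p = 0.00359), and no AAPK array reached a DMSO array. TIMM10 read 9.86, 9.86 and 9.85 against 9.93, 9.93 and 9.98; its groups did not overlap, but the change of 0.09 ± 0.04 was not called (adjusted p = 0.200). TIMM8B, which belongs to the TIMM8 and TIMM13 family of chaperones, rose from 9.78, 9.76 and 9.68 to 9.95, 9.98 and 9.95. That rise of 0.22 ± 0.05 (adjusted p = 0.00949) was matched by 0.25 on the other probe set. TIMM8A, TIMM13 and TIMM10B were at 0.11, 0.09 and -0.02 and were not called; the 3 other probe sets of TIMM10B were at 0.0086 to 0.13.

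Among the 8 carriers of ADP/ATP, phosphate and ATP-Mg 1 rose. SLC25A4, the ADP/ATP carrier of heart and muscle, read 8.43, 8.44 and 8.49 with DMSO and 8.73, 8.69 and 8.76 with AAPK. It was 1.21-fold higher (log2 change 0.27 ± 0.04, adjusted p = 0.00223), with 0.38 on the second probe set. SLC25A5, the ADP/ATP carrier of proliferating cells and the brightest member probe set, read 12.17, 12.18 and 12.14 against 12.20, 12.25 and 12.22. SLC25A3, the phosphate carrier, read 12.05, 12.10 and 12.06 against 12.10, 12.12 and 12.11. For both genes every AAPK array was above every DMSO array, yet the changes of 0.06 and 0.04 were not called, with intervals of -0.04 to 0.15 and -0.05 to 0.14. SLC25A4 minus SLC25A5 on the same array was -3.74, -3.74 and -3.65 with DMSO and -3.48, -3.55 and -3.46 with AAPK, a difference of 0.21 chosen after seeing the values. The remaining genes of this role group, the ATP-Mg carriers and the testis ADP/ATP carrier SLC25A31, ran from -0.11 for SLC25A25 to 0.26 for SLC25A41. SLC25A41 was dim, at a mean of 5.05, with an adjusted p of 0.0794; without DMSO replicate 1 it was called, at 0.37. Of the other probe sets of SLC25A25 a dim one was at -0.22 and passed (adjusted p = 0.0180 over 44988 probe sets, of which 12.9% passed), while the other was at 0.07.

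SLC25A32, the mitochondrial folate carrier, had the largest change of all members on the brightest probe sets; averaged over all probe sets of each gene it was at 0.37 and TOMM5 at 0.45. Its signals were 7.24, 7.15 and 7.32 with DMSO and 7.60, 7.67 and 7.81 with AAPK. The rise was 1.37-fold (log2 change 0.46 ± 0.06, adjusted p = 9.71e-04), with 0.29 on the other probe set. SLC25A20, the carnitine and acylcarnitine carrier that feeds fatty acid oxidation, went from 7.97, 8.06 and 8.04 to 8.19, 8.21 and 8.26. It rose by 0.20 ± 0.05 (adjusted p = 0.0150), where the other probe sets were at 0.17 and 0.33, and lost the call without DMSO replicate 1. SLC25A28, mitoferrin-2, which brings iron into mitochondria, read 7.52, 7.43 and 7.36 with DMSO and 7.22, 7.25 and 7.09 with AAPK. It fell by 0.25 on the log2 scale (SE 0.06, adjusted p = 0.0170), a call lost without DMSO replicate 1 or AAPK replicate 3. For these 3 genes the groups did not overlap. SLC25A37, mitoferrin-1, was at 0.02, with -0.12 to 0.09 on its 4 other probe sets.

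No member of 3 carrier groups was called. The 4 carriers of citrate, dicarboxylates and oxoglutarate ran from -0.08 for SLC25A21 to 0.08 for SLC25A11, with the citrate carrier SLC25A1 at 0.0016 ± 0.06. Among the 3 uncoupling-protein-like carriers the range was -0.05 for SLC25A14 to 0.04 for SLC25A30, and among 8 other carriers, several without a settled substrate, it was -0.14 for SLC25A53 to 0.08 for SLC25A46. Of these 15 genes SLC25A53 and SLC25A34 had an unadjusted p under 0.05. Amino acid and carnitine carriers other than SLC25A20 ran from -0.12 for SLC25A44 to 0.16 for SLC25A13, an aspartate/glutamate carrier, and cofactor, nucleotide and glutathione carriers other than SLC25A32 ran from -0.15 for SLC25A36 to 0.07 for SLC25A26. On the far side of the threshold TOMM70, SLC25A13 and SLC25A41 were nearest, at adjusted p of 0.0600, 0.0770 and 0.0794; TOMM40, TIMM23 and TOMM22 were nearest inside it. SLC25A13 was called with median centring, at 0.18, with both filters on dim genes, with an intensity trend and with array weights.

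**Figure D2:**
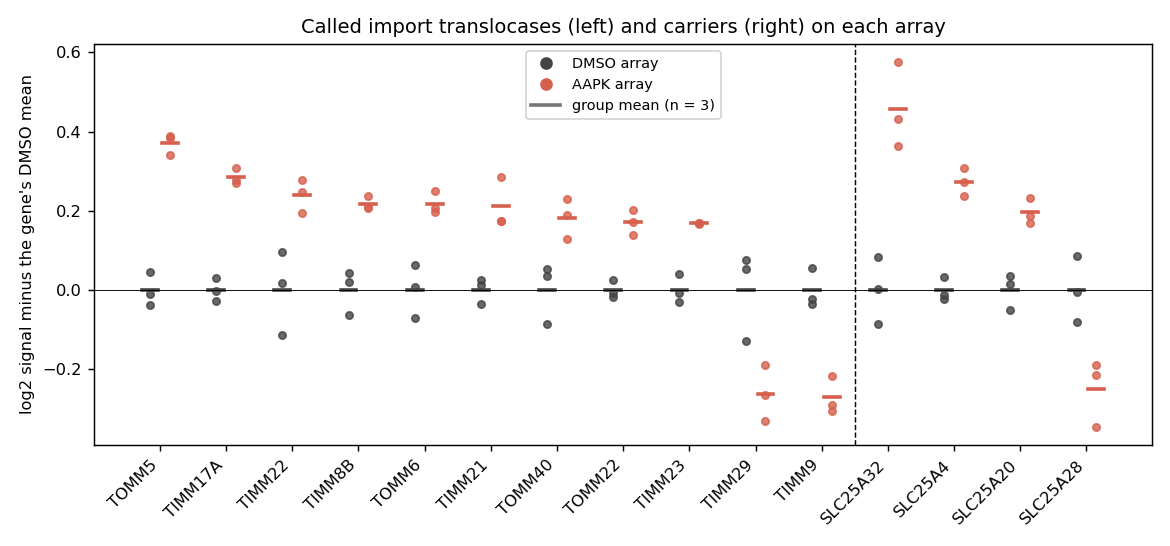
Log2 signal minus the gene's DMSO mean on the y axis for the 15 called members on the x axis, with 1 point per array and a bar at each group mean (n = 3). The DMSO and AAPK points of each gene do not overlap, and the mean changes run from -0.27 for TIMM9 to 0.46 for SLC25A32.

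Groups stood apart without overlap for 26 of the 69 members (37.7%), against 31.9% of all genes. By list this was 14 of 23 translocases, 12 higher and 2 lower, and 12 of 46 carriers, 8 higher and 4 lower. In each direction 14.9% of all genes were higher and 17.1% lower without overlap. Among genes at or above the median signal, where 51 of the 69 members lay, the share was 45.8%, 24.4% higher and 21.3% lower. At or above it the groups stood apart for 14 of 21 translocases (66.7%) and 10 of 30 carriers (33.3%). The SD between the 3 arrays of a group had a median of 0.05 among the members and ran from 0.00117, for TIMM23 with AAPK, to 0.23, for TOMM40L with DMSO.

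Other probe sets of the called members mostly had the sign of the brightest. The 23 translocases had 45 probe sets and the 46 carriers 117. Of the 11 called translocases 6 had more than 1 probe set, with 8 others, of which 7 had the same sign and 6 passed in a fit over all 44988 probe sets. Of the 4 called carriers 3 had others, 4 in all, of which 4 had the same sign and 3 passed. Of the 44988 probe sets 12.9% passed. Other probe sets of a gene read the same RNA on the same 6 arrays and are not further replicates. Over all members 16 of 22 other translocase probe sets and 46 of 71 other carrier probe sets had the sign of the brightest. The exception among called genes was the dim set of TIMM17A. TIMM9, TIMM22, TIMM29, TOMM6, TOMM40 and SLC25A28 had 1 probe set each that named them alone, so their changes have no such check.

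**Figure D3:**
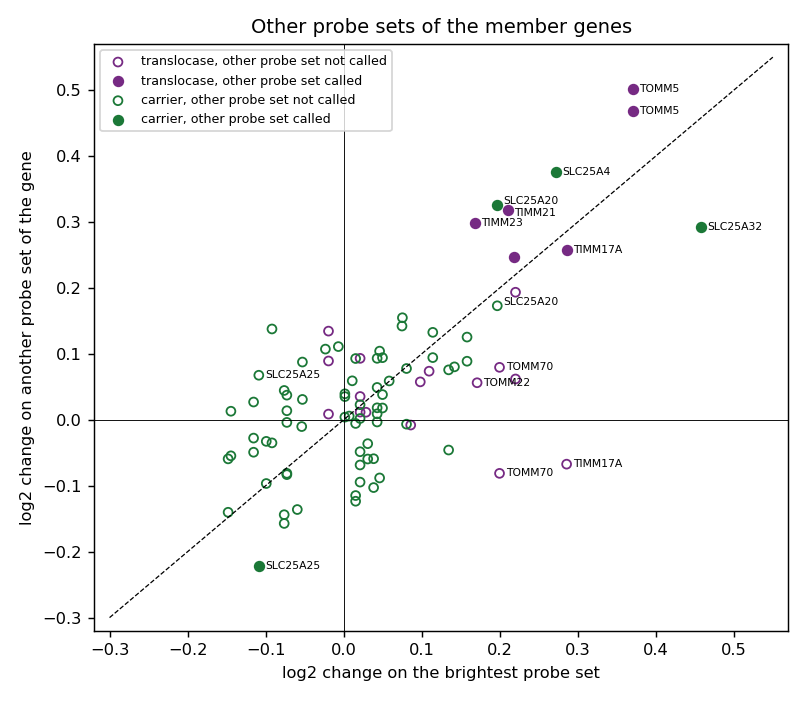
Log2 change on the brightest probe set of a member gene (x axis) against that on each of its other probe sets (y axis), for 22 other translocase and 71 other carrier probe sets; filled points passed at adjusted p under 0.05 and the dashed line marks equal change. Both other TOMM5 probe sets (0.50 and 0.47) lie above the line, and the dim TIMM17A set (-0.07) and a dim TOMM70 set (-0.08) lie below 0.

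Upstream sequences are shown for 5 called members, 3 that rose and 2 that fell, to set genes that moved apart beside each other. RefSeq's table (GRCh38.p14) held windows for 60 of the 69 members. Each run below is the 250 bases before the annotated start, 5′ to 3′ on the gene's strand. Capitals mark matches, on either strand, to GCGCANGCG, a core of the motif of NRF1, a nuclear activator of mitochondrial genes, and to CCGGAAG, a core of the ETS factor motif that GABP binds.
TIMM17A (chr1:201955253-201955502, plus strand): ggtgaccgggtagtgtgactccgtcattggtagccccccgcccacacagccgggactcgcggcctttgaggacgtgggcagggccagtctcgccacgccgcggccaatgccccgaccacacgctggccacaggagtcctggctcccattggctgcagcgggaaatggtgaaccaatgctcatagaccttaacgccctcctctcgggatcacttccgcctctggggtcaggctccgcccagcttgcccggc
TOMM6 (chr6:41787444-41787693, plus strand): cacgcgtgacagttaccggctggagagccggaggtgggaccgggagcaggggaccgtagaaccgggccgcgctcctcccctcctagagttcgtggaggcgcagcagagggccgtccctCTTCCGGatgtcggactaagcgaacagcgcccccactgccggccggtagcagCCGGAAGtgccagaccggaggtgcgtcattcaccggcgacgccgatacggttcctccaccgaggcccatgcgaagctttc
SLC25A4 (chr4:185143016-185143265, plus strand): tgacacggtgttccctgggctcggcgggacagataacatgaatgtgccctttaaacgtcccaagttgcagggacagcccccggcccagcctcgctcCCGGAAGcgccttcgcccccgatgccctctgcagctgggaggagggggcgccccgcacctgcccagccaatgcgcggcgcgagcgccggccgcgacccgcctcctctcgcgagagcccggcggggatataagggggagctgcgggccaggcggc
TIMM9 (chr14:58427532-58427781, minus strand): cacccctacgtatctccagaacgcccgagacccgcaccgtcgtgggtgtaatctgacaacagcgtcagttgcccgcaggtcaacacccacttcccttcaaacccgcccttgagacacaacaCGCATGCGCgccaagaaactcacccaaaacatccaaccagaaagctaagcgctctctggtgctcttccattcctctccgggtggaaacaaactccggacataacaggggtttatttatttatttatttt
TIMM29 (chr19:10928561-10928810, plus strand): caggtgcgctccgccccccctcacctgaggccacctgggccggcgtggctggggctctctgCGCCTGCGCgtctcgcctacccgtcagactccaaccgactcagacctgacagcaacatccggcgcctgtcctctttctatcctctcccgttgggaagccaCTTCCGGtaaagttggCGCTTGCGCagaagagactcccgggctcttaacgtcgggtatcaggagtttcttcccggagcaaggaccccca

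The window of TIMM17A, which rose, held neither string of letters, and that of TIMM9, which fell, held 1 match to the NRF1 core. TOMM6 held 2 matches to the ETS core and SLC25A4 held 1, while TIMM29, which fell, held 2 to the NRF1 core and 1 to the ETS core. Matches on both strands that overlap count once, and no match to the NRF1 core overlapped a match to the ETS core. With a C added after the NRF1 core TIMM9 held 0 matches. Of 35116 windows of the same length over all genes, 6.56% held the NRF1 core and 8.52% the ETS core. Among the 70 windows of the 60 members the shares were 12.9% and 27.1%. The windows over all genes were not limited to measured genes or matched to the members for base composition. What part base composition has in these shares was not tested. By list, 5 of 21 translocase windows and 4 of 49 carrier windows held the NRF1 core, and 8 of 21 and 11 of 49 the ETS core. Of windows of members that rose 1 of 9, that of TOMM40, held the NRF1 core and 4 of 9 the ETS core. Of those that fell 2 of 3 and 1 of 3 did, and that of SLC25A28 held neither. Of those not called 6 of 58 and 14 of 58 did. TOMM5, SLC25A32 and TIMM8B, which rose, had no window. A match is a run of letters and not a shown binding site.

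Of 24 measured motor, processing and assembly genes that work with the translocases (25 listed) 2 rose, 4 fell and 18 were not called, with a median of 0.07. That is 25% called, near the 24.8% of all genes at or above the median signal, where 23 of the 24 lay. GRPEL2, a nucleotide exchange factor of the matrix HSP70 motor, read 9.81, 9.69 and 9.84 with DMSO and 8.78, 8.75 and 8.80 with AAPK. It fell by 1.0002 on the log2 scale (SE 0.05, adjusted p = 1.39e-06), and by 0.49 on its dimmer probe set. GRPEL1, the paralogous exchange factor, read 8.15, 7.91 and 8.12 against 8.38, 8.41 and 8.35, a rise of 0.32 ± 0.06 (adjusted p = 0.00694) with 0.34 on its other probe set. The groups stood apart in opposite directions for the 2 paralogs. HSPA9, the motor HSP70 that both serve, fell by 0.26 (SE 0.05, adjusted p = 0.00402), from 11.31, 11.25 and 11.23 to 11.01, 11.05 and 10.96. Its 4 other probe sets fell too, by 0.24 to 0.34.

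Of the folding chaperonin of the matrix, the lid gene rose and the barrel gene was not called. HSPE1, the HSP10 lid of the chaperonin, read 8.02, 8.06 and 8.09 with DMSO and 8.60, 8.72 and 8.59 with AAPK. This was a rise of 0.58 ± 0.05 on the log2 scale (adjusted p = 4.66e-05) on its 1 probe set, so it has no check by another. HSPD1, the HSP60 barrel, read 11.64, 11.56 and 11.63 against 11.68, 11.66 and 11.70. Its groups did not overlap, but the change of 0.07 was not called (interval -0.03 to 0.17), and its 6 other probe sets ran from -0.0075 to 0.11. HSPE1 minus HSPD1 on the same array was higher with AAPK by 0.51, a comparison chosen after seeing the values. CHCHD4, the oxidoreductase that traps proteins in the intermembrane space, fell by 0.21 (SE 0.05, adjusted p = 0.0191). IMMP2L, a subunit of the inner membrane peptidase, fell by 0.19 (SE 0.05, adjusted p = 0.0426). The CHCHD4 call was lost without DMSO replicate 2 or 3 or AAPK replicate 1 or 3, and the IMMP2L call without DMSO replicate 1 or 3 or AAPK replicate 1 or 2 and with median centring or quantile normalisation.

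Of 17 measured genes of other mitochondrial membrane transport (19 listed), 7 rose and 0 fell by limma, and 8 had an unadjusted p under 0.05, as did 26.8% of all genes and 38.3% of those at or above the median signal; the median was 0.09. The called share of 41.2% stands beside 15.4% of all genes and 24.8% of the brighter ones, among which 13 of the 17 lay. Both subunits of the pyruvate carrier rose, MPC1 by 0.34 ± 0.06 (adjusted p = 0.00347) and MPC2 by 0.20 ± 0.06 (adjusted p = 0.0384). The other MPC2 probe sets were at 0.34, 0.22 and -0.05, and MPC2 lost the call after quantile normalisation, with all probe sets fitted together and without DMSO replicate 1 or 3 or AAPK replicate 1 or 2. VDAC3 and VDAC1, pores of the outer membrane, rose by 0.33 and 0.23 (adjusted p = 0.00175 and 0.00444). VDAC3 read 9.90, 9.80 and 9.96 with DMSO and 10.20, 10.21 and 10.24 with AAPK; VDAC2 was at 0.09 and not called. SFXN1, a mitochondrial serine transporter, rose by 0.32 and SFXN3 by 0.18 (adjusted p = 0.00184 and 0.0202), the latter not without DMSO replicate 1, AAPK replicate 2 or AAPK replicate 3. MTCH2, an outer membrane insertase of the SLC25 fold, rose by 0.27 (adjusted p = 0.00272) on its brightest probe set, with -0.01 on the other, and was at 0.13 and not called for the mean of the 2. Without DMSO replicate 3, and with genes below the median signal left out, the list had 6 higher and 1 lower call. UCP2, an uncoupling protein, had the lowest change of the list, -0.15 (adjusted p = 0.120) on its brightest probe set. Its other probe sets were at 0.03, -0.16 and 0.11.

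**Figure D4:**
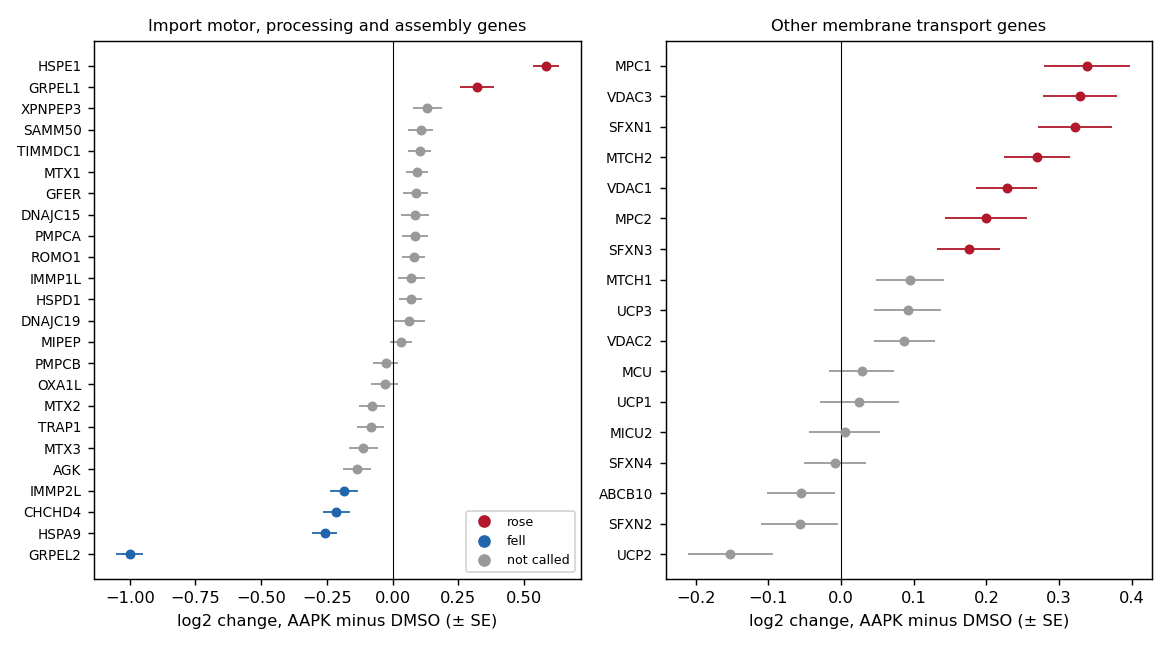
Log2 change (AAPK minus DMSO, x axis, ± moderated SE) for 24 import motor, processing and assembly genes on the left and 17 other membrane transport genes on the right (y axis); red rose and blue fell at adjusted p under 0.05. GRPEL2 at -1.0002 and HSPE1 at 0.58 are the ends of the left panel, and no gene of the right panel is blue.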

How the data were processed

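Per the labels' protocols, Trizol RNA of 6 samples was transcribed in vitro with biotin for PrimeView arrays. The deposited table holds log2 signal for 49395 probe sets. The scale was read from the values, 2.83 to 14.25. Array quartiles of the deposited values are nearly equal; how background, normalisation and probe summary were done is not given in the sources used here. Changes are read as relative to the bulk of genes, and signals of different probe sets do not compare amounts of RNA.

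Of the probe sets 44988 named 1 symbol, 1832 several and 2473 none, and 102 were controls. Groups were taken from the titles. The 18132 genes were tested with limma 3.58.1 in R 4.3.3 (lmFit, eBayes, group only, two-sided, Benjamini-Hochberg). The fit was tested on simulated arrays, in which fewer genes changed than were called here. It recovered 37.3% of log2 changes of 0.25 and 86.6% of those of 0.50. A gene that was not called may thus still have changed by such an amount. Array number, 3 per group, limits precision.

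The members and lists were chosen with earlier results of these data known. Named are all called members and pathway genes, fixed core subunits, the ends of each role group and the 3 members nearest the threshold on each side. The alternatives were quantile normalisation, median centring, 2 brightness filters, the mean or most variable probe set, all probe sets fitted, an intensity trend, array weights, a replicate block and leaving out each array. Slide and scan batches were not analysed here.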

Additional observations from a re-analysis of the deposited data

Results flagged for a closer look

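Probe sets that name a member together with another gene stood outside the gene comparison, and 4 of 8 such probe sets were higher with AAPK on every array and passed limma's threshold over all 49395 probe sets, where 12.9% of the sets naming 1 gene passed in their own fit. Of the 4 that name both TOMM6 and PRICKLE4, 3 were higher, by 0.29, 0.23 and 0.36 on the log2 scale, and the dim remaining set was at -0.09 (adjusted p = 0.351). Of the 3 that name both TIMM23 and TIMM23B, 1 was higher by 0.36 (adjusted p = 0.00217), and the others were at -0.06 and -0.14 and did not pass. The probe set that names TOMM7 and C4orf46 was at 0.06 (adjusted p = 0.451). Which of the named genes these sets read was not tested.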

How the results depend on the processing

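Of 28 called genes named above, 14 were called under every alternative that could be run, among them 6 of the 15 called members. The count of called translocases was 7 after quantile normalisation and 7 with the replicate number as a block, against 11. Over all genes the counts were 2683 and 2099, against 2788. Leaving out 1 array gave 7 to 8 called translocases, 3 to 4 carriers, 4 to 5 partner genes, 5 to 7 other transport genes and 1921 to 2450 genes in all. Deviations of same-numbered arrays from their group means correlated at -0.02, -0.23 and -0.05, and those of other pairs at -0.13 to 0.17. With 3 arrays a group these values cannot show whether same-numbered arrays share a culture or a batch. The block's counts for the other lists stayed within 1.5 times. Of 39 genes run under the alternatives, signs turned for 3 that were not called: TIMM50 (0.02 in the report) was at -0.00049 without DMSO replicate 1 and -0.0055 without AAPK replicate 2, and at most 0.049 without any other array, TOMM20 at -0.032 after quantile normalisation and TOMM70 at -0.081 on its most variable probe set; the causes were not tested. Median centring raised the share of calls that were higher from 52.8% to 62.1% over all genes, and quantile normalisation lowered it to 47.8%. The carriers' median change of 0.0043 became 0.03 with median centring and -0.01 after quantile normalisation. MPC1, TOMM40L and SLC25A41 lay below the median signal and have no value under that filter, nor SLC25A41 under the milder one. Signal over background is not given, so dim probe sets carry no detection limit.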
